A study of Mus musculus with 7 samples.

Results

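The Rab GTPases are the largest branch of the Ras superfamily and direct the traffic of membrane vesicles between organelles. The genes described here are those whose symbol is Rab followed by a number and, at most, a letter from a to d. The deposited table listed 44 such genes among 12756 genes, and 37 of the 44 had enough reads to be tested. The samples were libraries of ribosome-bound RNA from the retinas of adult C57BL/6 mice. All mice carried Cdh5-CreERT2, a Cre recombinase that is activated by tamoxifen and driven by the promoter of VE-cadherin in endothelial cells, and the Rpl22 tm1.1Psam allele, which adds an HA tag to a ribosomal protein after recombination. The groups were treated with a control IgG (3 libraries) or with an antibody to the Notch ligand Dll4 (4 libraries), so both groups carried the tag and the Cre and differed by the antibody. Antibody dose, time of sampling and the number of animals behind a library are not given in the labels.

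A Rab protein works as a switch. Exchange factors load it with GTP on the membrane of a given organelle, where it recruits effectors such as tethers and motors, and activating proteins make it hydrolyse the GTP. GDP dissociation inhibitors then pull it off the membrane and return it to the cytosol. Attachment depends on prenyl groups that are added to cysteines close to the C-terminus. In endothelial cells Rab proteins carry receptors such as VEGFR2 and VE-cadherin through endosomes and release Weibel-Palade bodies, and in photoreceptors they carry rhodopsin to the outer segment and serve the ribbon synapse.

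The prenylated end is shown first because it is the sequence that all members share in kind and by which they differ. The last 20 codons before the stop were read from GENCODE M21 transcripts for 43 of the 44 genes. Cysteine codons among the last 5 codons are in capitals. The sequences are those of the members to which the results below return, with the Rab5 paralogues next to each other, written as the coding strand from 5′ to 3′.
Rab5a: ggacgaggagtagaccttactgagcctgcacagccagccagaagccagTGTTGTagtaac
Rab5b: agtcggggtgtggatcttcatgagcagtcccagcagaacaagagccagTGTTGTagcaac
Rab5c: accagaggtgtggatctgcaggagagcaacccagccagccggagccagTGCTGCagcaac
Rab7: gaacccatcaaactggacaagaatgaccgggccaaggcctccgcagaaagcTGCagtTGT
Rab34: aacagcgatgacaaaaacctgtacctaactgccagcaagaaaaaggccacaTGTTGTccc
Rab10: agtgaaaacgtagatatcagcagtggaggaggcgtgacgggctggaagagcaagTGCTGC
Rab3c: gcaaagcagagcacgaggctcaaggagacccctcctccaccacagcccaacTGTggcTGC
Rab13: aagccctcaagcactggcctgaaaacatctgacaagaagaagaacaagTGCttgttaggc
Of the 43 genes, 37 had 2 cysteine codons in this stretch and 6 had 1 (Rab8a, Rab8b, Rab13, Rab23, Rab28 and Rab40c). The Rab5 paralogues carry an adjacent pair that is followed by further codons, Rab10 ends in an adjacent pair, and Rab7 and Rab3c end in a pair with another codon between. In Rab13 the only cysteine codon of this stretch stands 4 codons from the end, the position of a CAAX-type signal.

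Markers of the labelled cell type, the retinal endothelial cell, were present together with those of other retinal cells. All 21 genes of an endothelial marker list were present, and their summed level was 3147 to 5016 CPM (reads of a gene per 1000000 reads on listed genes) in control and 7055 to 9620 CPM with anti-Dll4. All 17 rod markers were present too, at 25762 to 26999 CPM with control IgG and 11596 to 21658 CPM with anti-Dll4. These sums did not overlap between the groups, while 1 of the 21 endothelial and 0 of the 17 rod markers passed the threshold used below. At an unadjusted limma p under 0.05 there were 8 of the 21 endothelial markers, all 8 higher with anti-Dll4. Of the 17 rod markers there were 10, with 9 lower and 1 higher. Among all tested genes the share at that level was 7.09%. Sums of Müller glia, cone and bipolar cell markers overlapped. Lens marker sums did not, at 0.59 to 52.1 CPM with control IgG and 53.8 to 465 CPM with anti-Dll4. Red blood cell marker sums overlapped but varied widely, from 1397 to 18715 CPM with control IgG and from 661 to 36008 CPM with anti-Dll4. In pulled-down RNA, cell number, RNA per cell and carry-over from cells without the tag cannot be told apart. The part of these differences in the results below was not tested. Values below with rod markers in the model or scaled on endothelial markers cannot test it. Both marker sums differed between the groups, so they cannot be separated from the antibody. Libraries held 1356192 to 1771086 reads on listed genes, and 3 reads were worth 1.69 to 2.21 CPM. Across tested genes, whose values are not independent, log2 levels of a pair of libraries correlated at 0.61 to 0.65 within the control group, at 0.55 to 0.60 within the anti-Dll4 group and at 0.52 to 0.63 from group to group. The column named as control 1 matched no control title by its number and was used as a control library without a number of its own.

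Comparing the groups asks which Rab transcripts differ in the pulled-down RNA after anti-Dll4 treatment, whichever cells they came from. None of the 37 tested Rab genes passed the threshold (0 genes with an adjusted p below 0.05, by limma on log2(CPM + 1) with Benjamini-Hochberg adjustment), where 0.119% of all 10899 tested genes passed. The lowest adjusted p of a Rab gene was 0.393. At an unadjusted p under 0.05 there were 5 Rab genes, which is 13.5% of those tested against a background of 7.09%. Of the 5, 4 had positive changes (Rab5c, Rab13, Rab34 and Rab10, against a background of 3.68%) and 1 a negative change (Rab3c, against 3.41%). Without control library 1 the 5 were 3, as Rab10 and Rab3c dropped out, and no background share is given for that setting. Voom on the whole reads, with TMM scaling, also called 0 Rab genes, where it called 0.376% of all genes. It had 3 of the 37 Rab genes at an unadjusted p under 0.05 (Rab5c, Rab34 and Rab3c, all among the 5). That share was at the voom background of 8.12%, so the larger share seen with limma was not seen with voom. Changes were above 0 for 22 genes and below 0 for 15. The share above 0 was thus 59.5% of the members and 45.5% of all tested genes. The median log2 change was 0.31 for the Rab genes and -0.14 for all tested genes. On scaling to the endothelial markers these medians became -0.69 and -1.04.

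The 95% intervals of the changes were wide. Their median width was 4.82 log2 units, the narrowest (that of Rab5c) was 1.44, and for 0 of the 37 genes did the interval lie within a doubling or a halving, that is between -1 and 1. A change that missed the threshold here is therefore not shown to be absent. The plot of changes with their intervals shows 5 genes whose interval leaves out 0.

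**Figure D1:**
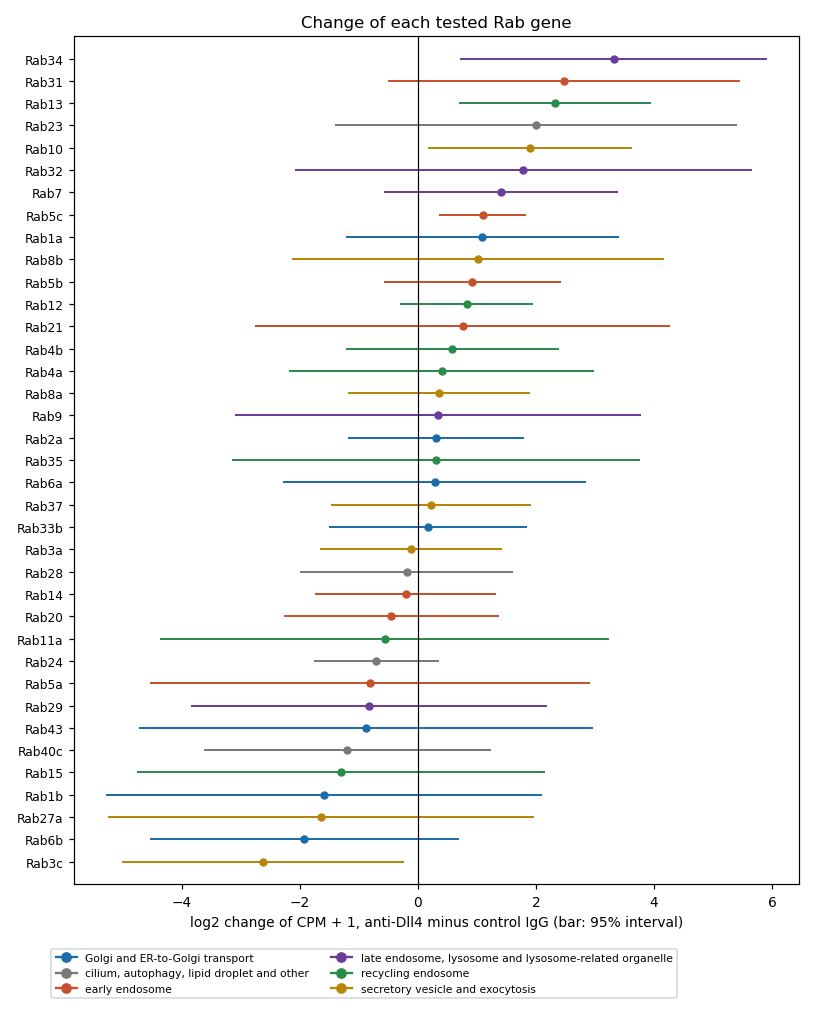
Log2 change of CPM + 1 (anti-Dll4 minus control IgG, x axis) for each of the 37 tested Rab genes (y axis), with the limma 95% interval as a bar and the compartment as the colour. Points run from -2.62 for Rab3c to 3.31 for Rab34, and the intervals of Rab34, Rab13, Rab10, Rab5c and Rab3c leave out 0.

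The groups did not overlap for 5 of the 37 genes (13.5%), against 7.59% of all tested genes. In 4 of these (Rab5c, Rab13, Rab34 and Rab7) every anti-Dll4 library lay above every control library, against a background of 3.84%, and in Rab3c every anti-Dll4 library lay below, against 3.75%. All 5 stayed apart under TMM scaling. Leaving out a library cannot make separate groups overlap, so it could only add genes to these 5. The count was 8 without anti-Dll4 library 1, when Rab10, Rab32 and Rab24 joined, and 5 to 7 without any other. Scaled on the endothelial markers, Rab3c was still apart, joined by Rab24 and Rab6b, all 3 lower, and 0 genes were apart and higher. That scaling also put the median change of all tested genes at -1.04. Shares of all tested genes with separate groups are not given for these settings, so these counts describe the libraries only.

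**Figure D2:**
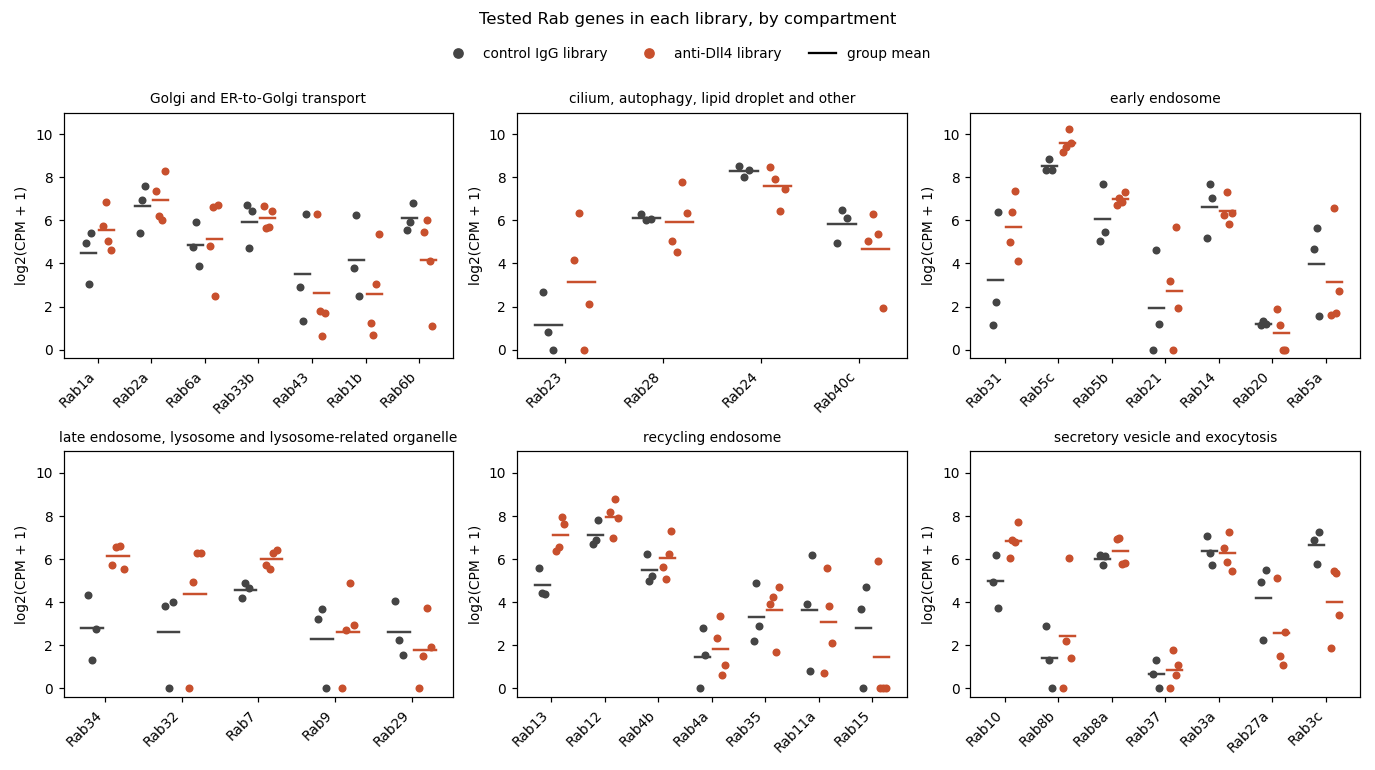
Level of each tested Rab gene as log2(CPM + 1) (y axis) in the 3 control IgG libraries (dark points) and the 4 anti-Dll4 libraries (orange points), in panels by compartment and ordered by change, with group means as bars. Rab5c, Rab13, Rab34 and Rab7 show all orange points above the dark ones, and Rab3c all below, while most other genes overlap.

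Early endosome Rab genes are the Rab5 paralogues, which drive fusion of incoming vesicles, with Rab14, Rab20, Rab21 and Rab31. Of the 7 tested, 0 passed the threshold, 4 had positive and 3 negative changes, and the median was 0.76. Rab5c stood at 325, 456 and 325 CPM in control libraries 1, 3 and 4 and at 573, 673, 1216 and 781 CPM in anti-Dll4 libraries 1 to 4. The lowest anti-Dll4 library was above the highest control library. The means were 368 ± 75.5 CPM (SD, n = 3) and 811 ± 283 CPM (SD, n = 4). On the log2(CPM + 1) scale this was a change of 1.10 ± 0.35 (SE, limma adjusted p = 0.393), with a 95% interval from 0.38 to 1.82. With any library left out the change was 0.88 to 1.26. It was 0.59 ± 0.401 (SE) with the mean of the rod markers in the model and 0.05 ± 0.385 (SE) on scaling to the endothelial markers. With that SE, equal levels relative to those markers are not shown. Neither setting can be separated from the antibody, as said above.

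The other Rab5 paralogues are described beside it. Rab5b stood at 31.9, 204 and 43.7 CPM with control IgG and 104, 129.7, 116 and 159.8 CPM with anti-Dll4. Control library 3 was above all others, and the groups overlapped (log2 change 0.92 ± 0.71, limma adjusted p = 0.817). Rab5a had 41, 67 and 3 reads with control IgG and 3, 154, 4 and 10 reads with anti-Dll4, with no order by group. These reads could not be assigned to Rab5a with certainty, because Pp2d1, whose exons overlap those of Rab5a on the opposite strand in GENCODE M21, had 39, 67 and 1 and then 0, 146, 0 and 7 reads. The counts of the 2 genes differed by at most 8 reads in a library. The log2 change listed for Rab5a was -0.81 ± 1.78, while its mean CPM was 25.2 in control and 26.0 in anti-Dll4 libraries. Whether Rab5c differed from its paralogues in response was not tested.

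Rab31, which acts between the Golgi and endosomes, had 1.18, 3.69 and 81.5 CPM with control IgG and 30.8, 82.0, 163 and 16.4 CPM with anti-Dll4. Control library 4 set the overlap of the groups (log2 change 2.47 ± 1.43, limma adjusted p = 0.742), and without it the change was 4.03. It was 1.41 without control library 1 and 1.08 with the rod covariate. Rab14, of early endosomes and the trans-Golgi network, ranged from 35.4 to 204 CPM with control IgG and from 56.1 to 157 CPM with anti-Dll4, with a change of -0.21 ± 0.73. Rab21, a regulator of integrin uptake, had a change of 0.76 ± 1.68 and Rab20 of -0.45 ± 0.87. The latter had at most 4 reads in any library.

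Recycling endosome Rab genes return receptors to the plasma membrane. Of the 7 tested, 0 passed, 5 had positive and 2 negative changes, and the median was 0.40. Rab13, which regulates tight junctions and the delivery of junction proteins, was at 47.2, 20.6 and 20.2 CPM with control IgG and 81.0, 93.0, 245 and 199.9 CPM with anti-Dll4. All anti-Dll4 libraries were above all control libraries, and anti-Dll4 libraries 3 and 4 were above the other two of their group. The means were 29.4 ± 15.5 CPM (SD, n = 3) and 155 ± 80.6 CPM (SD, n = 4). Limma gave a log2 change of 2.32 ± 0.77 (SE, adjusted p = 0.466), with a 95% interval from 0.71 to 3.92. Leaving out a library gave 2.04 to 2.71, the rod covariate 1.62 and scaling on the endothelial markers 1.28.

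Rab12, which sends cargo from recycling endosomes to lysosomes, had 104, 117 and 227 CPM with control IgG and 289, 125, 447 and 237 CPM with anti-Dll4. The groups overlapped through anti-Dll4 library 2 (log2 change 0.82 ± 0.53, limma adjusted p = 0.768), and the change was 0.54 without anti-Dll4 library 3, 0.096 with the rod covariate and -0.23 on scaling to the endothelial markers. Rab4b, of the fast recycling route, ranged from 31.0 to 74.9 CPM with control IgG and from 33.0 to 156 CPM with anti-Dll4. Its paralogue Rab4a had at most 15 reads in a library. Rab11a, the recycling endosome Rab that also carries rhodopsin in photoreceptors, had 24, 1 and 110 reads with control IgG and 1, 78, 23 and 6 reads with anti-Dll4. Its spread within each group covered nearly its whole range, and the change of -0.56 ± 1.82 turned to 0.71 without control library 4. Rab35, which acts in recycling and cytokinesis, had 6, 39 and 10 reads and then 21, 29, 4 and 44 reads, a change of 0.31 ± 1.65. Rab15 had reads in anti-Dll4 library 1 only (89 reads) within its group and in control libraries 1 and 4 (20 and 38 reads).

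Late endosome and lysosome Rab genes had the highest median change of the 6 compartments, 1.41 over 5 tested genes, with 4 positive, 1 negative and 0 past the threshold. That median is the change of Rab7 itself, whose 95% interval from -0.55 to 3.37 held 0. Compartments were assigned with earlier results known, and their order was not tested. Rab34, which positions lysosomes and takes part in macropinocytosis and in building cilia, was at 19.5, 1.47 and 5.87 CPM with control IgG and 52.2, 94.8, 98.0 and 46.3 CPM with anti-Dll4. Every anti-Dll4 library was above every control library. Mean levels were 8.94 ± 9.38 CPM (SD, n = 3) and 72.8 ± 27.4 CPM (SD, n = 4). The log2 change was 3.31 ± 1.24 (SE, limma adjusted p = 0.598), with a 95% interval from 0.73 to 5.90. Control library 3 held 2 reads, and without that library it was 2.56. With the rod covariate the change was 3.07 and on endothelial scaling 2.33.

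Rab7, the main Rab of late endosomes and of their fusion with lysosomes, had 17.1, 28.8 and 24.1 CPM with control IgG and 51.6, 45.9, 75.9 and 84.1 CPM with anti-Dll4. All anti-Dll4 libraries lay above the controls, and both groups were narrow. The means were 23.3 ± 5.86 CPM (SD, n = 3) and 64.4 ± 18.5 CPM (SD, n = 4). Its log2 change was 1.41 ± 0.94 (SE, limma adjusted p = 0.777), and its 95% interval from -0.55 to 3.37 held 0. Limma moderates the error of a gene by genes of a like level, and without the mean-variance trend the SE was 0.63 and the adjusted p of limma 0.794. Scaling on the endothelial markers left a change of 0.39.

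Rab32, a Rab of lysosome-related organelles, had 22, 0 and 23 reads with control IgG and 0, 49, 136 and 138 reads with anti-Dll4, so that each group held a library without reads (log2 change 1.78 ± 1.85). Rab9, which acts between late endosomes and the trans-Golgi network, and Rab29, a partner of the kinase Lrrk2, had changes of 0.34 ± 1.65 and -0.83 ± 1.44 from at most 50 reads in a library.

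Secretory vesicle Rab genes had 7 tested members with 0 past the threshold, 4 positive and 3 negative changes and a median of 0.22. Rab10, which brings vesicles with glucose transporters and other cargo to the plasma membrane, was at 30.1, 72.3 and 12.4 CPM with control IgG and 65.6, 117, 110.5 and 209 CPM with anti-Dll4. Control library 3 lay above the lowest anti-Dll4 library, and the groups overlapped there. The means were 38.2 ± 30.8 CPM (SD, n = 3) and 126 ± 60.4 CPM (SD, n = 4), and the log2 change came to 1.90 ± 0.82 (SE, limma adjusted p = 0.690). It ranged from 1.29 without control library 4 to 2.51 without control library 3, and was 0.87 on endothelial scaling.

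Rab3 proteins sit on synaptic vesicles and secretory granules. Rab3c was at 117, 54.6 and 151 CPM with control IgG and 2.68, 43.4, 39.7 and 9.60 CPM with anti-Dll4. Every anti-Dll4 library was below every control library. Mean levels were 108 ± 49.0 CPM (SD, n = 3) and 23.8 ± 20.7 CPM (SD, n = 4). Here the log2 change was -2.62 ± 1.14 (SE, limma adjusted p = 0.690), with a 95% interval from -4.99 to -0.25. It was -1.90 without anti-Dll4 library 1, -3.64 with the rod covariate and -3.62 on endothelial scaling. Rab3a, the principal Rab3 of neuronal synapses, had 135, 78.2 and 52.8 CPM with control IgG and 89.7, 56.9, 151 and 42.9 CPM with anti-Dll4. Its groups covered the same range, with a change of -0.12 ± 0.74 and a 95% interval from -1.64 to 1.41. Rab3d, found on granules of secretory cells, was too low to be tested: it had 2, 44 and 1 reads with control IgG and 0, 1, 1 and 1 reads with anti-Dll4.

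Markers of retinal neurons are given beside Rab3c as measured values. Amacrine cell markers (9 of 10 listed, Slc18a3 not among them and Calb1 at 0 in all control libraries) summed to 448 to 671 CPM with control IgG and 228 to 531 CPM with anti-Dll4. Ganglion cell markers (10 of 10 listed, Pou4f2 at 0 in all control libraries) summed to 206 to 304 CPM and 224 to 419 CPM. Bipolar cell markers (10 of 10 listed) summed to 2145 to 2648 CPM and 1777 to 2526 CPM. Among tested markers, positive and negative changes numbered 1 and 6 for amacrine cells (median -1.24) and 2 and 6 for ganglion cells (median -1.49). For bipolar cells they numbered 2 and 8 (median -0.59), and the median over all tested genes was -0.14. The part of amacrine, ganglion and bipolar cells in the level of Rab3c was not tested.

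Rab27a, which docks Weibel-Palade bodies in endothelial cells and melanosomes in pigment cells, had 50, 5 and 68 reads with control IgG and 51, 3, 2 and 9 reads with anti-Dll4. Anti-Dll4 library 1 was at the level of the higher controls and control library 3 at that of the other anti-Dll4 libraries (log2 change -1.64 ± 1.73, limma adjusted p = 0.874). The change was -2.63 without control library 3, -0.996 without control library 4 and -0.52 with the rod covariate. Rab8a, which carries Golgi-derived vesicles to the plasma membrane and the cilium, was at 71.4, 51.6 and 69.7 CPM with control IgG and 121, 125, 53.2 and 54.8 CPM with anti-Dll4, 2 of which were within the control range. The change of 0.35 ± 0.73 was 0.15 without anti-Dll4 library 2, 0.94 with the rod covariate and -0.69 on endothelial scaling. Rab8b and Rab37 had changes of 1.02 ± 1.51 and 0.22 ± 0.81. Rab37 had at most 4 reads in a library.

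Golgi Rab genes had the same counts of positive and negative changes as the early endosome and secretory vesicle genes. Of 7 tested, 4 had positive and 3 negative changes, 0 passed, and the median was 0.17. Rab6b, the neuronal paralogue of the Golgi Rab6a, was at 46.6, 59.0 and 111 CPM with control IgG and 43.5, 63.6, 16.4 and 1.13 CPM with anti-Dll4, with anti-Dll4 libraries 3 and 4 lowest (log2 change -1.92 ± 1.25, limma adjusted p = 0.770). Without anti-Dll4 library 4 the change was -0.89, and on endothelial scaling it was -2.90. Rab6a was at 26.6, 59.7 and 13.7 CPM with control IgG and 26.8, 96.6, 4.53 and 104 CPM with anti-Dll4. Its lowest and highest libraries were both anti-Dll4 libraries, and its change was 0.28 ± 1.23. Of the Rab1 pair, which act between the endoplasmic reticulum and the Golgi, Rab1a had a change of 1.09 ± 1.11 and Rab1b of -1.59 ± 1.77. Rab2a, which acts on the same route, had 0.31 ± 0.71, Rab33b, of the Golgi and autophagosomes, 0.17 ± 0.80, and Rab43, also of the Golgi, -0.88 ± 1.84.

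Among the remaining Rab genes 4 were tested, with 1 positive and 3 negative changes, 0 past the threshold and a median of -0.45. Rab24, an atypical Rab linked to autophagy, was at 366, 254 and 324 CPM with control IgG and 355, 244, 86.7 and 176 CPM with anti-Dll4. Anti-Dll4 libraries 2, 3 and 4 were below all controls, library 2 by a small margin, and library 1 was within the control range (log2 change -0.70 ± 0.50, limma adjusted p = 0.798). It was -0.33 without anti-Dll4 library 3 and -1.75 on endothelial scaling, and with the rod covariate it turned to 0.23. Rab24 shares exon sequence on opposite strands with Prelid1, whose reads followed another pattern (33 to 64 in control and 125 to 248 in anti-Dll4 libraries). Rab28, which serves the shedding of cone outer segments, was at 77.9, 62.7 and 65.8 CPM with control IgG and 32.1, 22.0, 218 and 81.3 CPM with anti-Dll4. Controls were close together and the anti-Dll4 libraries lay on both sides of them. The log2 change was -0.19 ± 0.86 while the mean CPM was higher in anti-Dll4 libraries (88.2 against 68.8), so no direction is given. Rab23, a ciliary regulator of hedgehog signalling, had a change of 2.00 ± 1.63 with 2 libraries at 0 reads, and Rab40c, a substrate adaptor of a ubiquitin ligase, -1.20 ± 1.16.

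The 7 genes below the filter were Rab11b, Rab27b, Rab2b, Rab30, Rab3d, Rab42 and Rab9b. Most of their reads came from 1 or 2 libraries. Rab27b had 69 reads in anti-Dll4 library 1 and 0 in the other 6 libraries. Rab9b had 60 reads in control library 3, 88 in anti-Dll4 library 2 and 0 elsewhere, and Rab30 had 53 in control library 1 and 1 in anti-Dll4 library 4. Rab2b had 24, 0 and 1 reads with control IgG and 24, 0, 1 and 0 with anti-Dll4, and Rab42 had 0, 1 and 0 and then 1, 22, 0 and 0. Rab11b had 1 and 10 reads in anti-Dll4 libraries 3 and 4 and 0 in the others, the same numbers as Igfbp6. A control total of 0 reads over 3 libraries allows up to 3 reads by counting error alone. Reads jumped between libraries by far more than counting error, as with the 69 reads of Rab27b. The level that could be present and undetected may therefore be well above 3 reads.

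Such jumps between libraries were found throughout the family. The dispersion index used here is the Pearson chi-square of a gene's reads within the groups, allowing for library totals, divided by its degrees of freedom, and it is about 1 where counting error is the only source of spread. Its median was 45.3 for the tested Rab genes and 41.4 for all tested genes. It was lowest for Rab37 (1.48) and Rab20 (1.73), which had few reads, and highest for Rab2a (122). Rab7 had an index of 6.21 and Rab5c of 108. A library without reads was found for 10 of the 37 tested Rab genes (27.0%, against 38.7% of all tested genes) and for 17 of all 44. In both groups the number of Rab genes with reads was 35 to 38 per library.

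**Figure D3:**
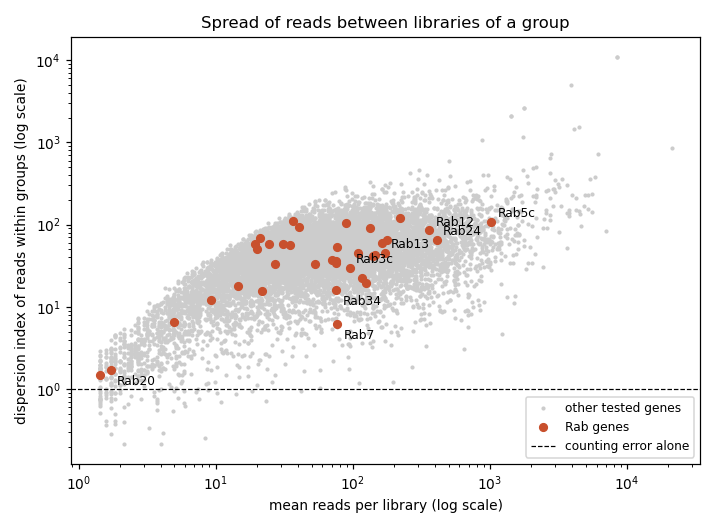
Dispersion index of the reads within groups (y axis, log scale) against mean reads per library (x axis, log scale) for the tested Rab genes (orange) and the other tested genes (grey); the dashed line at 1 marks counting error alone. Most Rab genes lie among the other genes at indices of 10 to 122, and Rab7 lies low for its read number at 6.21.

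Few members share read-length sequence with another gene. In the last 500 bases of the chosen transcripts, where a 3′ method reads, 40 of the 44 genes had no stretch of 75 bases (a read length) that also occurs in a transcript of another gene in GENCODE M21. The exceptions were Rab4b and Rab43, each with a read-through gene model over the same exons, Rab33b, where 26.3% of the stretches occurred in transcripts of several other genes, and Rab27a, where 2.11% occurred elsewhere. The values of Rab4b, Rab43 and Rab33b are therefore uncertain. The 3 Rab5 genes shared none with each other. This search covered the sense strand only. On the opposite strand, exons of Rab10os overlapped the last 500 bases of Rab10, and its part in the Rab10 reads was not tested. Exons of Mpv17l2 overlapped those of Rab3a, and exons of Mrpl48 those of Rab6a, also on the opposite strand.

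Summed over all 44 genes, Rab transcripts made up 0.193%, 0.229% and 0.233% of all CPM in control libraries and 0.268%, 0.288%, 0.362% and 0.305% in anti-Dll4 libraries. The means were 0.218% ± 0.0219 (SD, n = 3) and 0.306% ± 0.0406 (SD, n = 4), and the groups did not overlap. Scaled on the endothelial markers, the order turned around, with summed levels of 2650 to 3813 CPM with control IgG and 2066 to 2373 CPM with anti-Dll4. Rab5c alone supplied 13.9% to 19.9% of the Rab CPM with control IgG and 21.4% to 33.6% in anti-Dll4 libraries. Without Rab5c the sum was 1609 to 2008 CPM and 2102 to 2404 CPM. No test was made on these sums, because the members are not replicates.

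**Figure D4:**
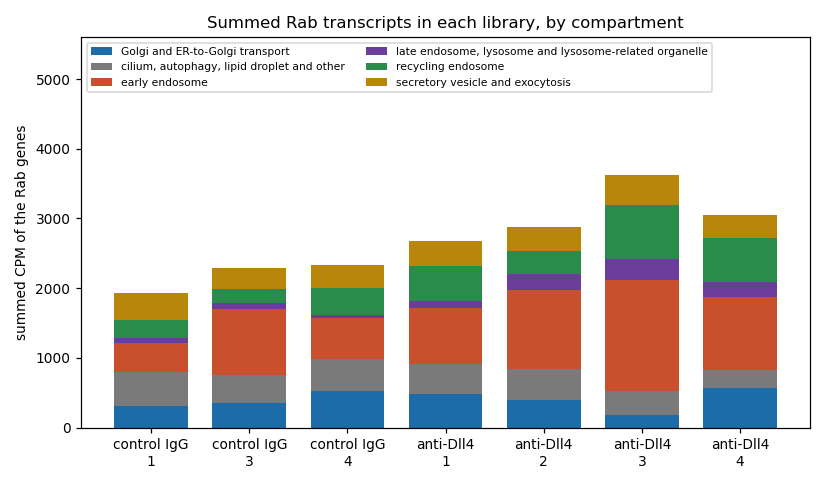
Summed CPM of the 44 Rab genes (y axis) in each library, stacked by compartment. The 3 control libraries reach 1934 to 2333 CPM and the 4 anti-Dll4 libraries 2675 to 3620 CPM, with the largest early endosome part in anti-Dll4 library 3, where it is mostly Rab5c.

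Proteins that act on or with Rab GTPases, and the Arf and Sar GTPases, were examined through 5 lists. None of their tested genes passed the threshold (0 in each). Factors for escort, prenylation and recycling had 2 positive and 7 negative changes among 9 genes (median -0.30), with 1 gene at an unadjusted p under 0.05. Exchange factors had 16 and 12 of 28 (median 0.19), with 2 such genes, activating proteins 9 and 18 of 27 (median -0.69), with 0, and effectors 13 and 20 of 33 (median -0.26), with 4. Arf and Sar GTPases, which bud vesicles where Rab proteins tether them, had 12 and 6 of 18 (median 0.16), with 2. Over all tested genes the median was -0.14, 45.5% of changes were positive and 7.09% had an unadjusted p under 0.05. These counts are descriptions of the lists, with no test.

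Some of these genes act directly with Rab3. Madd, the exchange factor of Rab3, was at 3517, 2663 and 2921 CPM with control IgG and 2463, 1785, 1722 and 1432 CPM with anti-Dll4, all of which were below the controls (log2 change -0.73 ± 0.23, limma adjusted p = 0.383). Rims2, a Rab3 effector of the active zone of photoreceptor and other synapses, was at 3204, 4206 and 4966 CPM with control IgG and 3087, 2581, 338 and 425 CPM with anti-Dll4. Again every anti-Dll4 library was below the controls, and libraries 3 and 4 were far below the other anti-Dll4 libraries (log2 change -1.97 ± 0.53, limma adjusted p = 0.276). Rod markers had lower sums in every anti-Dll4 library than in the controls, as given above, and their part was not tested for these genes.

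Dennd1a, an exchange factor of Rab35, had 409.5, 147 and 411 CPM with control IgG and 353, 150.5, 24.9 and 10.7 CPM with anti-Dll4 (log2 change -2.20 ± 0.88, limma adjusted p = 0.662). Rabggtb, the catalytic subunit of the enzyme that prenylates Rab proteins, had 195, 401 and 223 CPM and then 159, 223, 58.3 and 80.2 CPM (-1.19 ± 0.57, limma adjusted p = 0.705). Arl6ip5, a membrane protein of the prenylated Rab acceptor family, had 11.2, 74.5 and 13.7 CPM and then 123, 75.8, 241 and 97.7 CPM, every anti-Dll4 library being above the controls (2.36 ± 0.87, limma adjusted p = 0.593). Among activating proteins the lowest p values belonged to Sgsm1 (1.76 ± 1.02, limma adjusted p = 0.745) and Tbc1d1, which acts on Rab10 (1.55 ± 0.92, limma adjusted p = 0.750).

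Rufy1, an endosomal effector of Rab4 and Rab14, had 0 reads in the control libraries and 0, 58, 14 and 124 reads with anti-Dll4. It passed the filter through anti-Dll4 libraries alone. Its positive change, counted above among the effectors and among those at an unadjusted p under 0.05, was therefore fixed in advance. Arl8a, which moves lysosomes along microtubules, was at 54.3, 75.2 and 102 CPM with control IgG and 126, 154, 246 and 330.3 CPM with anti-Dll4. The groups did not overlap (log2 change 1.40 ± 0.58, limma adjusted p = 0.680). Arl4a, an Arf-like protein of the plasma membrane, had 72, 214 and 19 reads and then 0, 0, 5 and 29 reads (-3.98 ± 1.74, limma adjusted p = 0.692).

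Values of the 6 members described most fully are drawn for each setting of the analysis in the plot of changes under other settings. Rab34, Rab13, Rab10 and Rab7 had positive changes and Rab3c negative changes in all 19 alternatives, and none passed the threshold in any. The change of Rab5c was positive in all 19 and close to 0 in the scaling on endothelial markers.

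**Figure D5:**
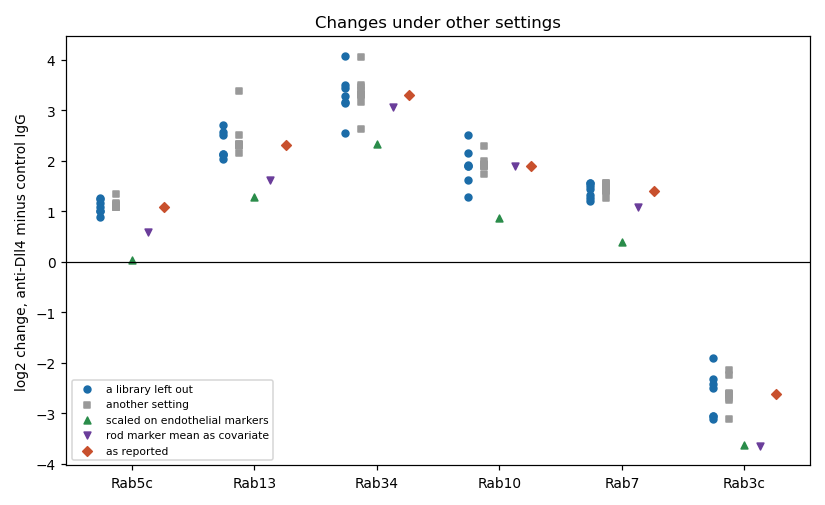
Log2 change (y axis) of 6 Rab genes (x axis) as reported (diamonds), with a library left out (circles), under scaling on endothelial markers (upward triangles), with a rod marker covariate (downward triangles) and under the other settings (squares). The triangles of Rab5c, at 0.05 and 0.59, lie below its other values, and Rab3c lies below 0 throughout.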

How the data were processed

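RNA pulled down through the HA tag was made into QuantSeq libraries (a 3′ end method), per the labels' protocols. The authors deposited log10(CPM + 1) values, as the values themselves show: turned back, they sum to 1000000 CPM in each library. Per the submitters' processing notes cutadapt, TopHat2 and bedtools were used, with the build hg19, although the symbols are those of mouse genes, so no coordinates are given. How reads were counted, and whether by strand, is not given in the sources used here. Dividing CPM by the value of a single read gave whole reads for 100% of values in each library (tolerance 1e-06). Reads carry no molecular identifiers, so floors cover counting error only.

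Values were converted to log2(CPM + 1), which understates changes of low genes. The 10899 genes that reached 1 CPM in 3 or more libraries were tested with limma 3.58.1 in R 4.3.3 (antibody as the only term, mean-variance trend, two-sided), with Benjamini-Hochberg adjustment over all of them and a threshold of 0.05. The script was tested on simulated data. The labels do not say that libraries are separate animals, so the p-values reflect only how these libraries vary, which may be partly technical. Rab genes, roles and lists were chosen with earlier results of these data known. Named are Rab genes with non-overlapping groups, the 10 smallest p-values and a list of well-studied members taken whatever their result, and from each list the 2 smallest p-values; Rab genes beyond these were added to account for all members. Levels are compared within a gene only. Exon overlaps and coding ends came from GENCODE M21 (GRCm38).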

Additional observations from a re-analysis of the deposited data

Results flagged for a closer look

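In the 4 anti-Dll4 libraries, 13 of the 44 Rab genes had a library whose gap to the nearest other was so large a part of the group's range that it passed Dixon's 95% critical value. Of all 12756 listed genes, 26.7% did so, against 29.5% of the Rab genes, and among tested genes the shares were 19.7% and 16.2% (6 of 37). The nominal rate of 1 in 20 groups holds for normal values and not for such sparse reads, where reads in a single library are enough, so the values below only describe these libraries. Anti-Dll4 library 1 stood apart for Rab15 (59.6 CPM), Rab27a (34.2 CPM), Rab27b (46.2 CPM), Rab2b (16.1 CPM) and Rab43 (78.3 CPM), all high, and for Rab3d, where it was at 0 CPM and the others at single reads. Anti-Dll4 library 2 was high for Rab42 (13.5 CPM), Rab5a (94.2 CPM) and Rab9b (53.8 CPM). Anti-Dll4 library 3 was high for Rab21 (50.4 CPM) and Rab8b (64.6 CPM). Anti-Dll4 library 4 was high for Rab11b (5.65 CPM, 10 reads) and Rab30 (0.565 CPM, 1 read).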

How the results depend on the processing

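Under 19 alternatives, 0 Rab genes passed the threshold in each, with a lowest adjusted p of 0.124 (limma, Rab3c on endothelial scaling), and 9 of the 20 named and tested Rab genes kept the sign of their change throughout. The median Rab change stayed between 0.11 and 0.40 with a library left out, and only the scaling on the summed endothelial markers turned it, to -0.69. That scaling also turned Rab12 to -0.23, Rab8a to -0.69, Rab4a to -0.07, Rab6a to -0.70 and Rab35 to -0.59, and moved the summed Rab level from 2185 to 3344 CPM in control and from 3056 to 2225 CPM in anti-Dll4 libraries. The rod covariate turned Rab24 to 0.23, Rab5a to 0.64 and Rab14 to 0.19. Rab genes at an unadjusted p under 0.05 numbered 3 with voom, 3 on endothelial scaling, 2 with the rod covariate, 3 with the block by title numbers and 3 without control library 1, instead of 5. Those with non-overlapping groups numbered 3 on endothelial scaling and 8 without anti-Dll4 library 1, also instead of 5. Apart from voom, shares of all tested genes are not given for these settings, so the counts have no background beside them. Leaving out a library could only add genes with non-overlapping groups, as said above. The cause of the other moves was not tested.

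The number of all genes past the threshold, 13 with limma as reported, was 0 without the mean-variance trend, 41 with voom, 75 on endothelial scaling and 1 with the rod covariate. With a library left out it ran from 3 (without control library 1 or anti-Dll4 library 4) to 22 (without control library 3), and it was 6 without anti-Dll4 library 1 or 2.

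Leaving out a library gave changes of -2.01 to 0.041 for Rab5a, -0.32 to 1.07 for Rab4a, -1.98 to 0.71 for Rab11a, -0.93 to 0.32 for Rab14, -0.24 to 1.18 for Rab6a, -0.81 to 0.28 for Rab28, -0.27 to 1.09 for Rab35 and -0.44 to 0.24 for Rab3a, so these genes have no settled direction.

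Deviations of same-numbered libraries correlated weakly across genes (0.046, 0.052 and 0.067). Each was the highest value for its libraries, the other pairs running from -0.037 to 0.015, which is a hint from the data and not the design. As none was over 0.1, the numbers were not taken to pair the libraries. A replicate block by title numbers gave 3 genes past the threshold and turned Rab8a to -0.15, Rab4a to -1.31, Rab6a to -0.31, Rab28 to 1.04, Rab35 to -0.70 and Rab3a to 0.33, with Rab6b at -3.75 and Rab31 at 1.44. The block by column numbers gave 4 and turned Rab4a to -0.10, Rab6a to -0.20, Rab28 to 0.28 and Rab3a to 0.022. Planned edgeR and DESeq2 fits were not run, since the deposited values are no counts, and voom on the whole reads took their place.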
